A study of Homo sapiens with 6 samples.

Results

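The genes encoding subunits of RNA polymerase II were followed through heat shock in HEK293 cells, a human embryonic kidney cell line. The members were fixed by name: POLR2A, POLR2B, POLR2C, POLR2D, POLR2E, POLR2F, POLR2G, POLR2H, POLR2I and POLR2K. Each was found at 1 locus of the deposited merged table, so 10 of 117001 loci and 10 of the 24143 genes in the per-library files were taken. All 10 averaged 1 FPKM or more over the 6 libraries, the minimum for testing, and so were among 13023 genes tested. FPKM is the number of sequenced fragments scaled to transcript length and library size, and a gene's FPKM was summed over its transcripts in each library.

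RNA polymerase II transcribes protein-coding genes and many non-coding RNAs. Its largest subunits form the active site, a group of smaller subunits holds the core together, and a detachable pair forms a stalk beside the RNA exit channel. Several small subunits are also built into RNA polymerases I and III. The largest subunit carries a C-terminal domain (CTD), a tail of heptad repeats whose phosphorylation changes as the enzyme starts, pauses, elongates and terminates. Heat shock is known for a wide fall in transcription of ordinary genes and for strong induction of chaperone genes, both of which act through this enzyme.

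There were 3 control and 3 heat shock libraries. All cells were grown in serum-supplemented medium. For heat shock, aliquots were taken into tubes when the cultures were passaged and stood at 45°C in a water bath for 30 min. The control cells were left untreated, and the paper does not say whether they were also held in tubes. Ribosomal RNA was depleted from total RNA before library preparation, and per the study the RNA stands for the state 30 min after the heat shock. The labels do not say whether the replicates of a group came from separate cultures, so the p-values measure the spread between these libraries, which may be technical. HEK293 is 1 established line, and no other genotype or treatment was involved. In bulk RNA, fewer cells and less RNA per cell cannot be told apart.

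The libraries did not stand alike within groups. The relative depth estimated from the files ran from 1 (control 3) to 2.03 (control 1), and absolute read numbers are not held by them. Transcripts without an assigned strand took between 35.9% (heat shock 1) and 66.5% (control 2) of the summed FPKM times length, with heat shock 3 at 65.7%. A common factor, the median ratio over 983 genes above 10 FPKM in every library, was 0.948, 0.439 and 0.967 in the control libraries and 2.15, 2.34 and 0.492 in the heat shock libraries. Heat shock 3 therefore stood apart from the other heat shock libraries and next to control 2 by both measures, and the tests of the subunits, their order and the gene lists are also given without it. Of 7 genes typical of HEK293 cells, 6 were above 1 FPKM in every library, and of 8 markers of other cell types 6 were below it in every library. Of 7 heat shock genes, 5 lay higher in all heat shock than in all control libraries after division by the common factor, as did 2.01% of all genes. The log2 changes of the 7 ran from 0.14 to 2.51, with none past an adjusted p of 0.05 in limma. Without heat shock 3 their median log2 change was 0.34, beside -0.36 over all genes.

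The CTD is encoded by the last of the 29 exons of POLR2A, at chr17:7416340-7417935 on the plus strand (hg19/GRCh37). That exon holds 1596 nt, of which 1152 are coding, and 21 heptads of the exact consensus, with a longest unbroken run of 15. The first 6 repeats of that run, at chr17:7416489-7416614, are shown. Assembled POLR2A transcripts of control 2 and control 3 skipped parts of this stretch. The codons of the tyrosine that opens each heptad are in capitals.
POLR2A CTD repeats: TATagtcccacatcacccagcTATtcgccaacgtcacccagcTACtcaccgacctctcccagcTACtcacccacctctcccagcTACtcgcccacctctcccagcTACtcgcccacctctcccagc

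The first question was whether heat shock changed the deposited levels of the polymerase genes. In FPKM as deposited all 10 subunits had a higher mean after heat shock, but none was called and 9 of 10 overlapped between the groups. The sum over the 10 genes was 294, 132 and 359 FPKM in the control libraries and 623, 813 and 158 FPKM in the heat shock libraries. The group means were 262 ± 117 and 531 ± 337 FPKM (SD, n = 3 each), a ratio of 2.03. Heat shock 1 and heat shock 2 lay above every control, and heat shock 3 lay among them.

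Among the core subunits, the deposited values differed in shape. POLR2A (chr17:7387698-7417935), the catalytic subunit RPB1, had 21.7, 16.4 and 53.2 FPKM in the control libraries and 55.5, 38.9 and 21.4 FPKM after heat shock. Control 3 was as high as heat shock 1, and the groups overlapped. POLR2B (chr4:57845109-57897334), the RPB2 subunit that completes the active site, had 9.38, 3.60 and 33.1 FPKM against 21.5, 25.3 and 4.52 FPKM. Here control 3 was the highest of all 6 libraries. POLR2C (chr16:57496551-57505921), the RPB3 subunit that pairs with RPB11 in the core scaffold, had 13.2, 6.85 and 16.1 FPKM against 37.0, 51.9 and 11.8 FPKM. POLR2I (chr19:36604611-36606206), the zinc-binding RPB9 subunit known for its part in fidelity, had 44.2, 16.2 and 66.0 FPKM against 87.0, 91.4 and 21.5 FPKM. For both, the first and second heat shock libraries were above the controls and the third was not.

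The stalk pair sat at opposite ends of the range. POLR2D (chr2:128603840-128615729), the RPB4 subunit, had the lowest mean, though in heat shock 3 it was above POLR2B, with 5.27, 2.36 and 3.45 FPKM in the control libraries and 8.12, 8.44 and 6.42 FPKM after heat shock. It was the 1 member whose heat shock libraries all lay above the controls, and 3.95 of the 6.42 FPKM in heat shock 3 came from a single 518 nt fragment. POLR2G (chr11:62529011-62534187), its partner RPB7, was the highest, with 89.4, 32.0 and 79.3 FPKM against 176, 330 and 37.9 FPKM. In heat shock 2, 263 of its 330 FPKM were in a 518 nt transcript that began in the fourth exon.

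The subunits shared with RNA polymerases I and III were alike in pattern. POLR2E (RPB5, chr19:1086578-1095391) had 18.0, 8.09 and 19.6 FPKM in the control libraries and 37.0, 40.1 and 9.66 FPKM after heat shock. POLR2F (RPB6, chr22:38349674-38365319) had 37.2, 16.5 and 32.2 FPKM against 71.9, 88.8 and 18.3 FPKM. In each, control 2 and heat shock 3 were the 2 lowest libraries and heat shock 1 and 2 the highest. POLR2H (RPB8, chr3:184081194-184086363) had 31.4, 18.7 and 30.1 FPKM against 71.1, 79.7 and 15.4 FPKM. The zinc-binding POLR2K (RPB12, chr8:101162839-101166230) had 24.7, 11.1 and 25.9 FPKM against 57.6, 59.1 and 11.0 FPKM. These last 2 genes were lowest in heat shock 3 itself.

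**Figure D1:**
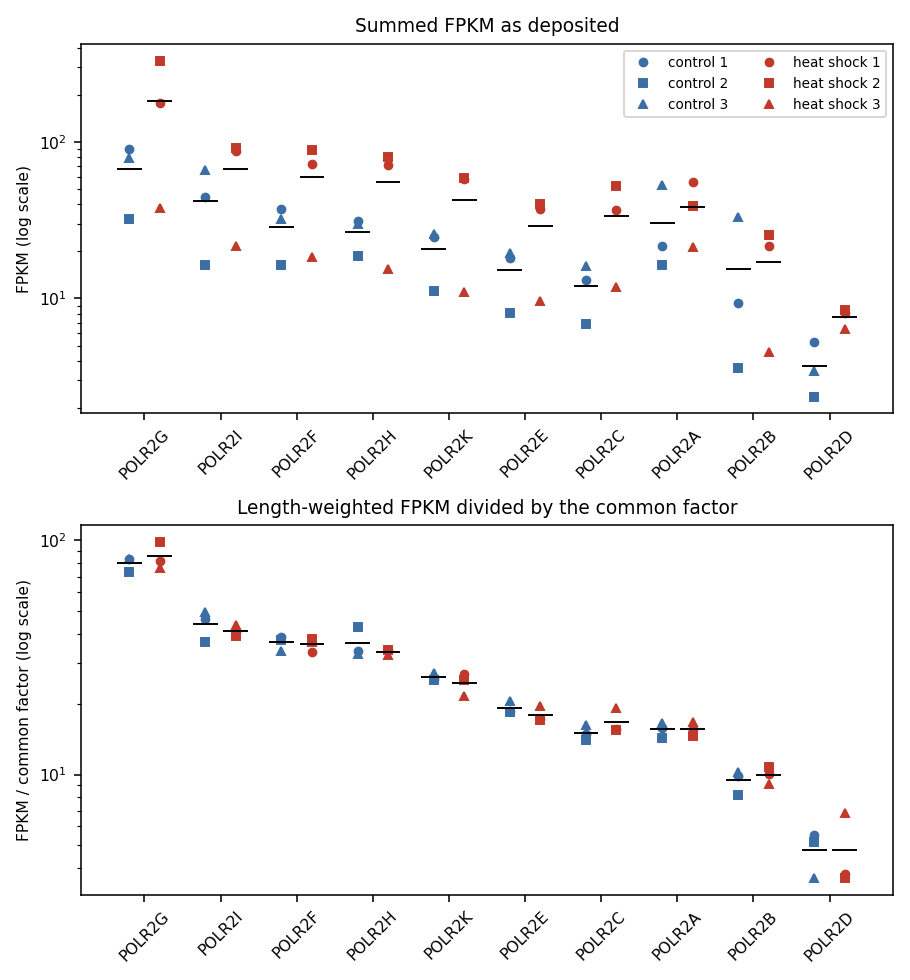
Level of each subunit in each library, in FPKM as deposited (top) and in length-weighted FPKM divided by the common factor (bottom), on log axes; blue is control, red is heat shock, symbols mark replicates and bars the group means. The deposited values spread widely, with control 2 and heat shock 3 low, whereas in the lower panel the groups overlap for all 10 genes.

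On log2(FPKM + 1), the changes of the 10 subunits ran from 0.34 (POLR2B) to 1.25 (POLR2C), with a median of 0.77 beside 0.45 over all 13023 genes. Limma called none of them at an adjusted p of 0.05 and a change over 2-fold, the lowest adjusted p being 0.710, and none reached an unadjusted p of 0.05. Over all genes 0.023% were called and 3.69% had an unadjusted p under 0.05, while 3.71% had all heat shock libraries above and 2.26% all below the controls. The 1 of 10 above, POLR2D, is read against that share. The intervals were wide, reaching from a fold of 0.326 at the lowest end to 9.84 at the highest. Folds on this scale understate the change of low genes such as POLR2D.

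Leaving out heat shock 3, the deposited changes rose to between 0.77 (POLR2A) and 1.96 (POLR2G), beside a median of 0.83 over all genes. Then 8 of 10 subunits lay wholly above the controls, as did 55.7% of all genes, and 7 of 10 had an unadjusted p under 0.05, as did 48.9% of all genes. Limma called none of the 10, with a lowest adjusted p of 0.0792, and 0.0768% of all genes. With control 2, the low control library, left out in place of heat shock 3, the deposited changes ran from -0.34 (POLR2B) to 0.92 (POLR2C). None of the subunits was called there either. In the merged table, which holds 1 pooled value per group with no error, the heat shock to control ratio was 3.45 to 4.96 for the 10 loci with a median of 4.44, beside a median of 3.24 over 21467 loci. The pooled ratio and the per-library FPKM were scaled separately.

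The second question was whether the subunits changed relative to other abundant genes. After division by the common factor the rise was gone: the 10 changes ran from -0.47 (POLR2B) to 0.42 (POLR2C), with a median of -0.08 beside -0.21 over all genes. This scale sets the typical abundant gene to no change, and 6 of the subunits (POLR2A, POLR2F, POLR2G, POLR2H, POLR2I and POLR2K) are among the 983 genes that set it, so a change shared by all of them cannot be seen on it. The sum over the 10 genes was 327 ± 38.3 in the control libraries and 319 ± 29.2 after heat shock (SD, n = 3 each).

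POLR2C was the 1 subunit whose libraries separated, with 13.9, 15.6 and 16.6 in the control libraries and 17.2, 22.2 and 23.9 after heat shock in FPKM over the common factor. All 3 heat shock libraries were higher. Its log2 change was 0.42 ± 0.17 (SE), with an unadjusted p of 0.0527 and an adjusted p of 0.913 in limma. POLR2A stood at 22.9, 37.3 and 55.0 against 25.7, 16.6 and 43.5, a log2 change of -0.43 ± 0.45 (SE). Its groups overlapped widely.

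No subunit was called on this scale and none had an unadjusted p under 0.05. Over all 13023 genes 0% were called, 3.23% (420 genes) had an unadjusted p under 0.05, 2.01% had all heat shock libraries above and 5.38% all below. Without heat shock 3 the 10 changes ran from -0.78 (POLR2A) to 0.37 (POLR2G), with POLR2C still above and POLR2E now below every control. Over all genes 4.3% lay above and 41.9% below, and 0% were called. The lowest adjusted p of a subunit was then 0.348.

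Most of the summed FPKM of POLR2A came from assembled transcripts without the 5′ end. In POLR2A, transcripts that lacked the first annotated exon held 86.4%, 85.1% and 96.3% of the summed FPKM in the control libraries and 84.5%, 100% and 92.2% after heat shock. The FPKM over the last exon was 7.36, 6.34 and 23.7 times that over the first exon in the controls, and 5.96 and 12.8 times in heat shock 1 and heat shock 3. In heat shock 2 the first exon was listed at 0. Both groups thus had the 3′ excess, and their ranges overlapped.

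Single pieces decided some of the library values. In control 3 a POLR2A piece of 1334 nt, lying wholly in the CTD exon, was given 42.1 FPKM, with an interval of 37.7 to 46.5 FPKM from the assembler. It made up most of the 53.2 FPKM of that library. In the same library a 939 nt piece of POLR2B that began at exon 21 of 25 was given 31.1 FPKM, so that 94.0% of the POLR2B signal there lacked the first exon. In the other 5 libraries the share for POLR2B was 0%. POLR2C ranged from 18.9% in control 1 to 100% in heat shock 1. By contrast POLR2E, POLR2F and POLR2I had no signal from transcripts lacking the first exon in any library.

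**Figure D2:**
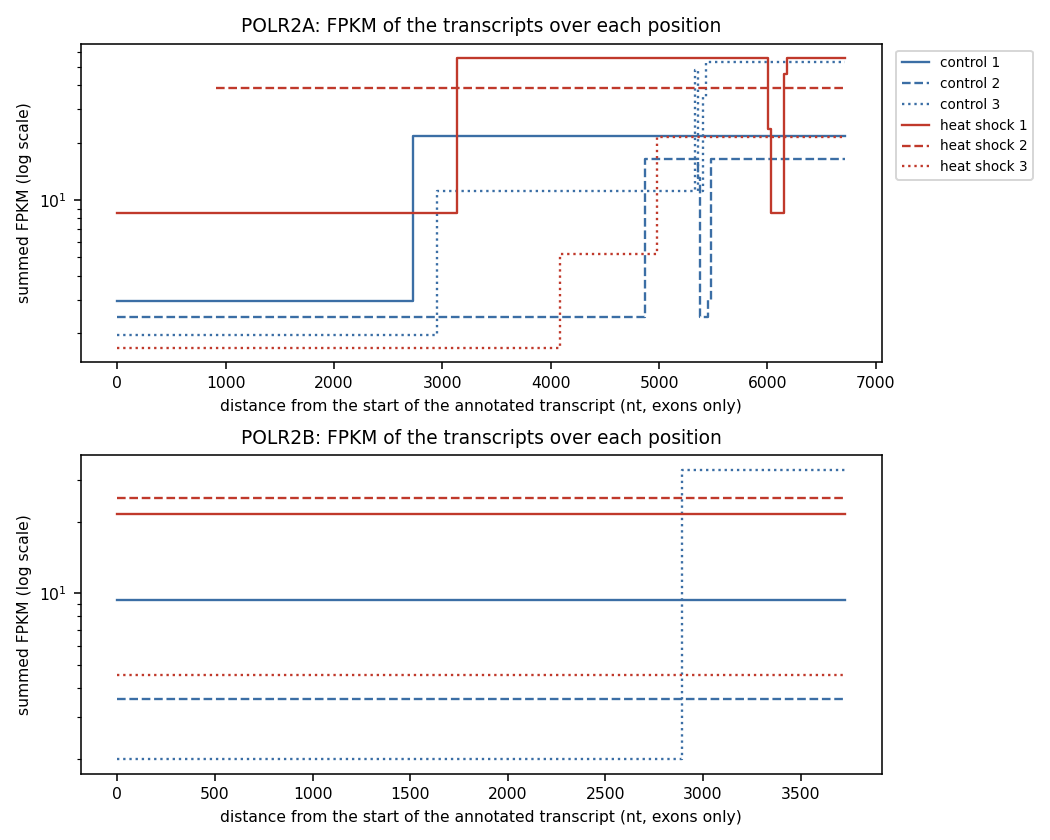
Summed FPKM of the transcripts that cover each position of POLR2A (top) and POLR2B (bottom) against distance from the start of the annotated transcript in nt of exon; log axis, blue control, red heat shock, line style marks the replicate, and no line is drawn where the value is 0. POLR2A rises toward its 3′ end in every library but heat shock 2, at a different position in each. In heat shock 2 it is drawn from exon 5 on, at 1 level. POLR2B rises in control 3 alone. The dips near the end are parts of the CTD exon skipped by assembled transcripts.

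3 of the POLR2A pieces skipped part of the CTD exon, each by a whole number of heptads. The skip was 105 nt in control 2 (chr17:7416584-7416688), 63 nt in control 3 (chr17:7416563-7416625) and 147 nt in heat shock 1 (chr17:7417223-7417369). These are 5, 3 and 7 heptad lengths of 21 nt, with no remainder. In control 3 the 21 bases before the skip and the last 21 bases within it are the same, and in control 2 and heat shock 1 they match at 18 and 19 of 21 positions. The stretches of heat shock 1 are shown, with the bases that are the same in both in capitals.
Before the skip: GTACTCGCCtACCAGtCCCAC
End of the skipped part: GTACTCGCCcACCAGcCCCAC

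Each skipped part opened with CT and closed with AC on the plus strand, which read as GT and AG, the usual intron ends, on the other strand, whereas the transcripts were assigned to the plus strand. The FPKM of the 3 pieces was 13.9, 42.1 and 46.9. The cause was not tested. The repeats were looked at after the values had been seen.

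A measure that weighs each transcript by its length was added after these values were seen. FPKM times length was summed over a gene's transcripts and divided by the length of its longest annotated transcript, so that a short piece counts only for the part it covers. On this measure POLR2A had 15.2, 6.32 and 15.8 FPKM in the control libraries and 33.6, 34.1 and 8.26 FPKM after heat shock. Control 3 no longer stood out. POLR2B had 9.52, 3.60 and 9.78 FPKM against 21.5, 25.3 and 4.52 FPKM, with control 3 now beside control 1. The heat shock to control ratios of the 10 genes lay between 1.81 and 2.32 on this measure, and between 1.11 and 2.79 in summed FPKM.

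A common factor was computed anew on the length-weighted values, over 886 genes above 10 FPKM in every library. With those values divided by it, the 10 subunits were nearly level between control and heat shock cells. Among the core subunits, POLR2A had 15.8, 14.4 and 16.6 in the control libraries and 15.6, 14.6 and 16.7 after heat shock, means of 15.6 ± 1.10 and 15.6 ± 1.07 (SD, n = 3 each). POLR2B had 9.90, 8.19 and 10.3 against 10.0, 10.8 and 9.13. POLR2C had 14.8, 14.1 and 16.2 against 15.6, 15.5 and 19.1, and its libraries now overlapped. POLR2I had 45.9, 37.0 and 49.2 against 40.5, 39.1 and 43.4.

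In the stalk, POLR2G had 83.2, 73.0 and 83.3 in the control libraries and 81.8, 98.1 and 76.5 after heat shock. POLR2D had 5.50, 5.16 and 3.63 against 3.78, 3.61 and 6.83, the widest relative spread of the 10, with heat shock 3 highest. Of the shared subunits, POLR2E had 18.7, 18.4 and 20.6 against 17.2, 17.1 and 19.5, and POLR2F had 38.7, 37.5 and 33.8 against 33.4, 37.9 and 36.9. POLR2H had 33.8, 42.6 and 32.6 against 33.9, 34.0 and 32.5, with control 2 apart from the rest. POLR2K had 25.7, 25.3 and 27.3 against 26.8, 25.2 and 21.6, with heat shock 3 lowest. All 10 overlapped between the groups.

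The log2 changes on this scale ran from -0.11 (POLR2H) to 0.14 (POLR2C), with a median of -0.03 beside -0.17 over the 12296 genes tested. For POLR2A the change was 0.00 ± 0.09 (SE), with a 95% interval of -0.23 to 0.24. The widest interval was that of POLR2D, from -0.72 to 0.65, so that all 10 intervals lay within folds of 0.605 and 1.57. These are folds of the level plus 1, which understate the change of low genes such as POLR2D. On that scale, which 5 of the subunits help to set, a 2-fold change relative to the abundant genes lay outside every interval. In summed FPKM over the common factor the intervals reached from a fold of 0.295 to 2.72. Limma called none of the 10, the lowest adjusted p being 0.885, and none had an unadjusted p under 0.05. Over all genes 0% were called, 2.64% had an unadjusted p under 0.05, 1.51% had all heat shock libraries above and 5.64% all below.

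Without heat shock 3, 8 of 12296 genes (0.0651%) were called on the length-weighted scale, none of them a subunit. The subunits' length-weighted changes then ran from -0.28 (POLR2D) to 0.17 (POLR2G), with a lowest adjusted p of 0.320. POLR2E lay below every control, as did 48.6% of all genes, with a change of -0.15 ± 0.08 (SE). The intervals covered folds of 0.571 to 1.39, again of the level plus 1, so a 2-fold fall of POLR2D itself is not excluded.

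**Figure D3:**
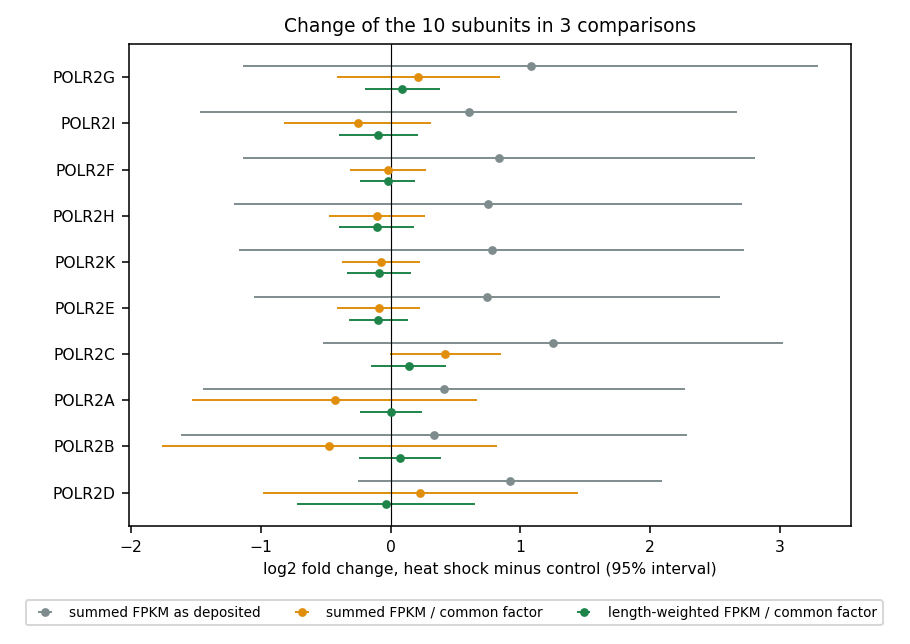
Log2 fold change of each subunit, heat shock minus control, with its 95% interval from limma (3 against 3 libraries), for summed FPKM as deposited (grey), summed FPKM over the common factor (orange) and length-weighted FPKM over the common factor (green). Grey points all lie right of 0 with wide intervals, and every interval of the 3 comparisons includes 0.

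The order of the subunits was similar from library to library, with POLR2G, POLR2K, POLR2E, POLR2B and POLR2D at the same place in all 6 by length weighting. The length-weighted scale over the common factor is per length, using full and not effective lengths. POLR2I also shares 319 exon bases with TBCB, so comparisons between genes are approximate. On this scale POLR2G led with a mean of 82.7 ± 8.63 (SD over the 6 libraries). POLR2I followed at 42.5 ± 4.56, POLR2F at 36.4 ± 2.21, POLR2H at 34.9 ± 3.82, POLR2K at 25.3 ± 1.99 and POLR2E at 18.6 ± 1.32. POLR2C at 15.9 ± 1.75, POLR2A at 15.6 ± 0.97, POLR2B at 9.72 ± 0.93 and POLR2D at 4.75 ± 1.31 came last. The stalk genes POLR2G and POLR2D were first and last in all 6 libraries, and their products form the same module.

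Neighbours in the order did not always differ beyond their spread. POLR2G was above POLR2I, POLR2H above POLR2K, POLR2K above POLR2E, POLR2A above POLR2B and POLR2B above POLR2D with ranges that did not meet. The ranges of POLR2I and POLR2F, POLR2F and POLR2H, POLR2E and POLR2C, and POLR2C and POLR2A did meet. POLR2I was above POLR2F in 5 of 6 libraries, POLR2F above POLR2H in 4 of 6, and POLR2A above POLR2C in 4 of 6. In control 2 POLR2H was above both POLR2I and POLR2F, with POLR2I the lowest of these 3, and in heat shock 1 POLR2H passed POLR2F. POLR2C was the higher of its pair in heat shock 2 and heat shock 3. Over the 5 libraries without heat shock 3, POLR2A at 15.4 ± 0.91 came before POLR2C at 15.2 ± 0.80, and the other places by mean were the same.

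This scale was added after the values were seen, and 5 of the subunits help to set it. The subunits also varied little over the 6 libraries on it. Their coefficients of variation ran from 6.07% (POLR2F) to 27.6% (POLR2D) with a median of 9.99%, and without heat shock 3 from 3.51% (POLR2K) to 21.2% (POLR2D) with a median of 8.78%. For the 4536 genes with means between those of the lowest and the highest subunit, the median over the 6 libraries was 22.7%. These genes were not matched to the subunits in level, and no such median was taken without heat shock 3. The sum of the 10 ranged from 276 to 296. It was 287 ± 9.93 in the control libraries and 286 ± 9.22 after heat shock (SD, n = 3 each). In summed FPKM over the common factor the coefficients of variation ran from 6.32% to 73.5% with a median of 23.3%. The median of the genes between the lowest and the highest subunit was 32.9% there.

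A subunit's share of the summed level of the 10 genes within a library does not depend on how libraries are scaled. In summed FPKM, POLR2C held 4.47%, 5.20% and 4.48% in the control libraries and 5.94%, 6.38% and 7.45% after heat shock. All heat shock libraries were higher, and the exact permutation test gave p = 0.1, the smallest that 3 against 3 can give. If the group labels fell at random, any 1 subunit would separate in either direction with that probability, and 10 were looked at. Without heat shock 3 the difference was 1.44 percentage points in place of 1.87. This drew on the same remaining libraries, without overlap and again at the smallest p possible (exact p = 0.1). The other 9 overlapped, with exact p between 0.4 and 1. POLR2A took 7.38%, 12.4% and 14.8% against 8.91%, 4.78% and 13.6%. By length weighting all 10 shares overlapped, with exact p from 0.2 for POLR2C upward, and POLR2A took 5.43% ± 0.21 against 5.48% ± 0.51 (SD, n = 3 each).

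**Figure D4:**
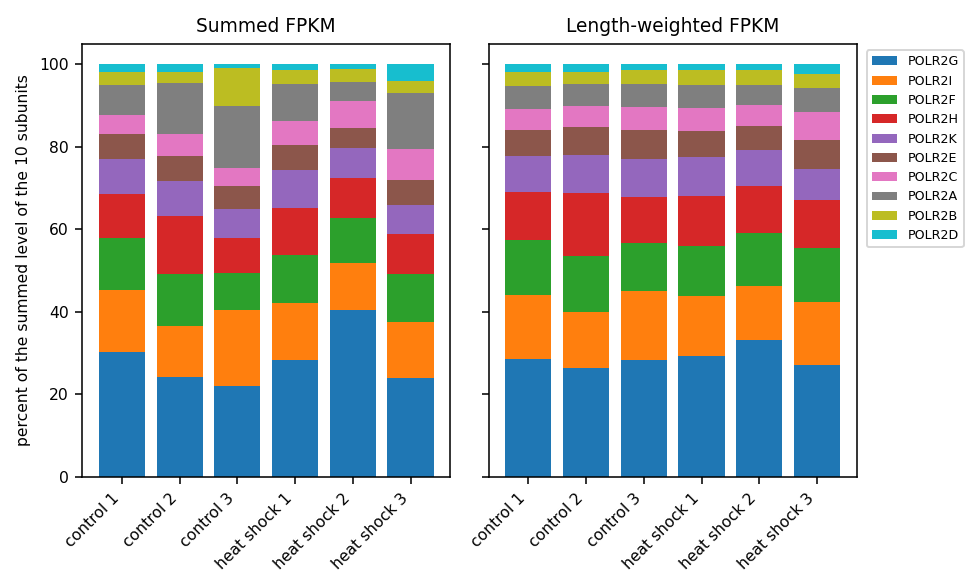
Percent of the summed level of the 10 subunits held by each of them in each library, from summed FPKM (left) and length-weighted FPKM (right). On the left POLR2A and POLR2B swell in control 3 and POLR2G in heat shock 2, and on the right the 6 columns are alike.

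Of the remaining polymerase II subunit genes, POLR2L (RPB10, also in polymerases I and III) was the most abundant, with 161, 172 and 191 in the control libraries and 199, 187 and 177 after heat shock in summed FPKM over the common factor. POLR2J, which encodes RPB11, had 28.7, 27.2 and 25.5 against 30.0, 26.1 and 24.1. Both overlapped, with log2 changes of 0.11 ± 0.10 and -0.02 ± 0.13 (SE). The copies of POLR2J share sequence with it and their reads cannot be fully told apart. POLR2J2 had 9.74, 11.0 and 3.96 against 5.70, 5.66 and 6.51. POLR2J3 had 8.24, 7.28 and 5.21 against 5.12 and 4.68, and was listed at 0 in heat shock 3. Its heat shock libraries were thus all below the controls, as were those of 5.38% of all genes. POLR2J4 was between 0.154 and 1.39 in 5 libraries and at 10.9 in heat shock 1. POLR2M, which encodes the polymerase-associated protein GDOWN1, had 2.96, 1.27 and 1.48 against 2.16, 1.85 and 1.40. None of these 6 genes was called on either scale, and the lowest unadjusted p was 0.144 for POLR2J3 over the common factor. Without heat shock 3, POLR2L and POLR2J as deposited had log2 changes of 1.74 ± 0.55 and 1.60 ± 0.52 (SE), each with an adjusted p of 0.0792 in limma, and over the common factor 0.15 ± 0.11 and 0.05 ± 0.14. None of the 6 was called there either.

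The lists of genes around the enzyme likewise held no called member in any of the 3 comparisons. After division by the common factor, 8 polymerase I subunits had a median change of -0.07 and 11 polymerase III subunits one of -0.08, beside -0.21 over all genes. In polymerase I the smallest p belonged to POLR1G (-0.50 ± 0.37, SE) and POLR1D (0.14 ± 0.16). In polymerase III, POLR3GL had 16.7, 17.6 and 16.3 in the control libraries and 20.2, 22.7 and 21.7 after heat shock, all higher, as were 2.01% of all genes, with an unadjusted p of 0.0366 and an adjusted p of 0.913. By length weighting its change was 0.07 ± 0.07 and its groups overlapped. POLR3C changed by -0.66 ± 0.42.

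Among 18 general transcription factor genes the median was 0.03. TBP, the TATA-binding protein, had 6.82, 7.87 and 5.93 against 10.7, 12.8 and 10.4, again all higher. Its unadjusted p was 0.0133 and its adjusted p 0.913 in limma. Of the 18 genes 2 lay wholly above and 1 wholly below the controls, beside 2.01% and 5.38% of all genes. By length weighting the log2 change of TBP was 0.22 ± 0.13 (SE). ERCC3, a helicase of TFIIH, was at -0.63 ± 0.31. For 15 tested pausing and elongation factors the median was -0.05, with NELFE, a subunit of the pausing factor NELF, at 1.04 ± 0.55 and CTR9 of the PAF complex at -0.53 ± 0.37.

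Of the 15 tested assembly factors and CTD phosphatases, CTDP1 was the 1 gene with an unadjusted p under 0.05, beside 3.23% of all genes. CTDP1 encodes a phosphatase that removes phosphate from the CTD. It had 5.38, 8.16 and 5.44 in the control libraries and 3.20, 1.24 and 1.47 after heat shock, all lower, as were 5.38% of all genes, a log2 change of -1.34 ± 0.34 (SE) with an unadjusted p of 0.00811 and an adjusted p of 0.913 in limma. By length weighting it had 4.66, 3.18 and 2.12 against 1.35, 1.13 and 1.32, again all lower, at -0.89 ± 0.26 and an adjusted p of 0.885. SSU72, another CTD phosphatase, was at -0.43 ± 0.21, with overlapping groups. The median of that list was -0.15, and that of 30 Mediator subunits was -0.12, with MED28 at -0.45 ± 0.21 and MED6 at -0.45 ± 0.31. Mediator carries signals from activators to the polymerase.

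Without heat shock 3, again no member of these lists was called in any of the 3 comparisons. Over the common factor POLR3GL was at 0.33 ± 0.14 (SE, adjusted p = 0.269 in limma), TBP at 0.70 ± 0.20 (0.155) and CTDP1 at -1.24 ± 0.37 (0.162). CTDP1 and SSU72 were then lower in both heat shock libraries than in every control, as were 41.9% of all genes. SSU72 was at -0.63 ± 0.15 (0.124). As deposited without heat shock 3, POLR3GL was at 1.86 ± 0.49, TBP at 2.17 ± 0.42 and CTDP1 at -0.014 ± 0.42 (SE). The median over all genes was 0.83, and the groups of CTDP1 overlapped. The list medians over the common factor ran from -0.27 for polymerase I subunits to 0.09 for pausing and elongation factors, beside -0.36 over all genes.

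Some subunit genes share exon bases with neighbouring genes, and transcripts without a strand lay in or near them. No strand-specific preparation is stated for these libraries, and exon bases are shared between POLR2I and TBCB (319 bases), POLR2B and IGFBP7 (98), POLR2C and DOK4 (52), POLR2E and ARHGAP45 (50), and POLR2F and C22orf23 (3). Reads from these bases cannot be told apart. Transcripts without a strand inside the 10 genes numbered 8, 9 and 4 in the control libraries and 1, 2 and 11 after heat shock. In the 5000 bp downstream of the genes they numbered 11, 7 and 5 against 1, 1 and 11. Both counts were lowest in heat shock 1 and heat shock 2, which also held the fewest such transcripts in all (17304 and 30334). These inside and downstream transcripts were not among those summed for the 10 genes. Whether the reads behind them affected the levels of single genes was not tested. A term for the libraries richest in such transcripts (control 1, control 2 and heat shock 3) is given among the alternatives.

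The promoters of the subunit genes were searched for the paired core of the heat shock element, GAANNTTC or TTCNNGAA, on both strands (each pattern reads the same on either strand, and matches may overlap). RefSeq gave 9 promoters for 7 of the 10 genes, each from 250 bases before to 50 after the start (GRCh38.p14). A match lay in 1 of the 9, and in 13.5% of all 35116 promoters. That match was in POLR2F, in the window at chr22:37953413-37953712 on the plus strand, at position -225 from the start. It is shown with the match in capitals.
POLR2F promoter: atgccaaaattGAAATTTCaccctaagacc

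The same search matched the single promoters of HSPA1A, HSPA1B and HSPA8 and 2 of 3 of DNAJB1, and not that of HSPH1. A match is a description of letters and not a site. POLR2F itself had a change of -0.02 ± 0.12 (SE) over the common factor.

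The genes most like POLR2A across the 6 libraries included NUBP2 (Pearson r = 0.990) and SART3 (0.982), out of 2917 genes averaging 10 FPKM or more, on log2 of summed FPKM over the common factor plus 1. All libraries are shared by all genes, so these are descriptions. On length-weighted values the same correlations were -0.041 and 0.063.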

How the data were processed

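Total RNA depleted of ribosomal RNA was sequenced from 3 control and 3 heat shock HEK293 libraries. The submitters' processing notes name FastQC 0.10.1, Trimmomatic 0.3.0, TopHat2, Cufflinks 2.0.2 and Cuffdiff. The authors deposited a Cufflinks transcript assembly on hg19 for each library, with FPKM per transcript, and a merged table with pooled FPKM for each group. The fold changes and p-values in that table were not used. No per-sample column was left unmapped. Read counts are not held, so depth is relative and no counting interval is given.

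FPKM was summed over the transcripts of each gene, both annotated ones and those assembled with them. RefSeq accessions were turned into 24143 genes (39467 of 40803 accessions matched by accession, 546 by the assembly's own name and 790 kept as they are). Genes averaging 1 FPKM or more over the 6 libraries entered the test on log2(FPKM + 1) by limma 3.58.1 (R 4.3.3) with a trended eBayes step, Benjamini-Hochberg adjustment over all tested genes, and a call at an adjusted p of 0.05 and a log2 change over 1. The fit was checked on simulated data. Shares were compared by a two-sided exact permutation test. A common factor was the median ratio to the geometric mean over 983 genes above 10 FPKM in all libraries, 6 of the subunits among them, and it was computed anew for length-weighted values over 886 genes, 5 of the subunits among them. Length-weighted FPKM, which uses full and not effective lengths, and a term for the libraries rich in unstranded transcripts were added after the values were seen.

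The subunits and the gene lists were chosen with earlier results of these data known. Named genes were all 10 subunits, all remaining polymerase II subunit genes, up to 2 members with the smallest unadjusted p over the common factor in each list, and the 3 genes most like POLR2A, of which 1 is not reported here. Check genes and markers are given as counts. POLR2G, POLR2I and POLR2K were named without a promoter. Alternatives covered the pseudocount, the FPKM minimum, the trend, annotated transcripts alone, other scalings, the replicate number and each library left out. Python 3.11.15 and pandas 2.3.3 were used.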

Additional observations from a re-analysis of the deposited data

How the results depend on the processing

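None of the 10 subunits was called under any alternative run, on either scale (lowest adjusted p in limma 0.0792 as deposited, without heat shock replicate 3, and, without the same library, 0.348 over the common factor and 0.320 by length weighting). The files limit this: only FPKM is held, 3 libraries a group allow no exact p under 0.1, and the median gene's change depends on the scaling (0.45 as deposited, -0.21 over the common factor). The number of genes called as deposited was 3. It was 0 by TPM and with no FPKM minimum, 1 with annotated transcripts alone, without a trend and with median-of-ratios size factors, and 0 to 10 when a library was left out, 0 without any 1 control, 1 and 2 without heat shock replicates 1 and 2, and 10 without replicate 3. Over the common factor it was 0, and 1 with a factor over all tested genes above 0.

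Libraries of the same replicate number did not deviate together: their deviations from the group means correlated at 0.022, -0.26 and -0.32. The labels do not say whether they were prepared together. With the number as a replicate block, 17 genes were called as deposited and none over the common factor, none of them a subunit.

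Signs of the subunits' uncalled changes flipped in 10 of 159 values as deposited and 19 of 159 over the common factor. As deposited, TPM gave -0.31 for POLR2A, -0.35 for POLR2B and -0.13 for POLR2I, median-of-ratios factors gave -0.16 for POLR2A and -0.21 for POLR2B, the term for unstranded transcripts gave -0.0097 for POLR2A and -0.40 for POLR2B, annotated transcripts alone gave -0.25 for POLR2C, and POLR2B ran from -0.34 to 1.10 over libraries left out. Over the common factor, annotated transcripts alone gave 0.79 for POLR2B, -0.59 for POLR2C, -0.17 for POLR2D and 0.41 for POLR2I. Length weighting gave 0.0031 for POLR2A, 0.074 for POLR2B and -0.035 for POLR2D. The factor over all tested genes gave 0.18 for POLR2E, 0.26 for POLR2F, 0.17 for POLR2H, 0.024 for POLR2I and 0.20 for POLR2K, and the term for unstranded transcripts 0.025 for POLR2F. With a library left out, POLR2B ran from -0.84 to 0.13 (without control replicate 3), POLR2D from -0.30 (without heat shock replicate 3) to 0.51, POLR2F from -0.085 to 0.036, POLR2G from -0.059 (without heat shock replicate 2) to 0.37 and POLR2H from -0.19 to 0.027.

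The distance between the highest and lowest change of the 10 over the common factor was 0.89, and it was 1.38 with annotated transcripts alone and with the term for unstranded transcripts, and 0.25 by length weighting. The number of subunits whose shares did not overlap between groups was 1, and 0 with annotated transcripts alone and by length weighting, and 1 to 2 with a library left out (2 without control replicate 2 or 3). Such counts have no counterpart over all genes, and groups separate more easily with fewer libraries. POLR2D averages under 10 FPKM and has no value at that minimum. The causes were not tested.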
